A study of Mus musculus with 9 samples.

Results

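NRF2, encoded by Nfe2l2, is the transcription factor that cells use to answer oxidants and reactive chemicals. Its regulators, antioxidant and detoxification genes made up a list of 38 genes, named from what is known of the pathway, with earlier results of these data in view. They were 38 of the 54119 genes with a transcript in the table, and 38 of the 16273 genes that passed the filter on low counts, so no member was lost. The members were followed in 9 RNA-seq libraries of total RNA from primary microglia, the immune cells of the brain, 3 for each of 3 treatments: a control siRNA, an siRNA to Chd8, and an siRNA to Tsc2. An siRNA is a short RNA duplex that directs the cell to degrade the mRNA it pairs with. Chd8 encodes a chromatin remodeler and Tsc2 an inhibitor of mTOR signaling, and both are risk genes for autism. All 3 groups came from C57BL/6J mice, as microglia shaken off mixed glial cultures of whole embryonic brains, and the labels number the libraries of a group 1 to 3. The results text of the study names LPS, a bacterial cell wall component, for 3 days. In the methods, RNA for sequencing was taken after 3 days of siRNA, with no LPS named there. The methods also do not count the RNA-seq among the experiments done without LPS, and the sample labels name no LPS. If LPS was given, all 3 groups shared it.

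In resting cells, KEAP1 holds NRF2 in the cytoplasm and hands it to a ubiquitin ligase. Oxidants modify KEAP1, and NRF2 then enters the nucleus, pairs with a small MAF protein such as MAFG, and binds antioxidant response elements, whereas BACH1 occupies the same elements and holds the genes down until heme removes it. The targets fall into branches that feed each other: cystine uptake and glutathione synthesis, the thioredoxin and peroxiredoxin cycle, enzymes that make the NADPH which both cycles consume, and enzymes that break down heme and store its iron. In microglia, heme oxygenase 1 and ferritin also handle the heme and iron of engulfed cells.

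A minority of the NRF2 genes fell in each knockdown once the replicate number was taken into account, none rose, and none passed the test without that step. A gene was taken as changed at an adjusted p under 0.05 from edgeR's quasi-likelihood test over all 16273 genes, and as called where the fold change also exceeded 1.5. Once the replicate number entered the model as a block, 8 of the 38 members fell in Chd8 siRNA-treated microglia, against 0.412% of all genes tested, and 4 of them were called, against 0.289%; no member rose, against 0.627% of genes. In Tsc2 siRNA-treated microglia 4 members fell, against 0.264%, 3 were called, against 0.197%, and none rose, against 0.375%. Without the block no member passed in either comparison, and neither did any other gene (0.0% in each direction). At an unadjusted p under 0.05 without the block, 6 members were lower with Chd8 siRNA (background 2.1%) and 5 with Tsc2 siRNA (background 1.41%), and 0 were higher in either (backgrounds 1.72% and 1.2%). DESeq2, also without the block, gave 0 members with Chd8 siRNA (background 0.0192% lower) and 1 with Tsc2 siRNA (background 0.0184%), Hmox1. With the block, DESeq2 gave 10 members with Chd8 siRNA, all lower (background 2.62% of the genes with an adjusted p), which were the 8 of edgeR with Gclm and G6pdx. It gave 6 with Tsc2 siRNA, all lower (background 1.11%), which were the 4 of edgeR with Esd and Slc48a1. These were bulk samples, in which fewer cells of a type and less RNA per cell cannot be told apart.

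The cystine importer Slc7a11 and the sulfiredoxin gene Srxn1 fell in both knockdowns, as did heme oxygenase 1 (Hmox1). In Chd8 siRNA-treated microglia the glutathione genes Gclc, Gstm1 and Abcc1, the thioredoxin reductase gene Txnrd1 and the NADPH enzyme gene Pgd fell as well, and in Tsc2 siRNA-treated microglia Gclm did. When each of the 6 libraries compared was left out in turn, Slc7a11 and Srxn1 with Chd8 siRNA and Hmox1 with Tsc2 siRNA passed in all 6 fits. With Chd8 siRNA, Gclc and Abcc1 passed in 0 of the 6 and Gstm1, Txnrd1, Pgd and Hmox1 in 1, and these 6 genes did not pass with the replicate numbers 1 and 2 alone either. With Tsc2 siRNA, Slc7a11 passed in 5 and Gclm and Srxn1 in 2. Both knockdowns were compared with the same 3 control libraries, so that a high or low control library moves both comparisons together.

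**Figure D1:**
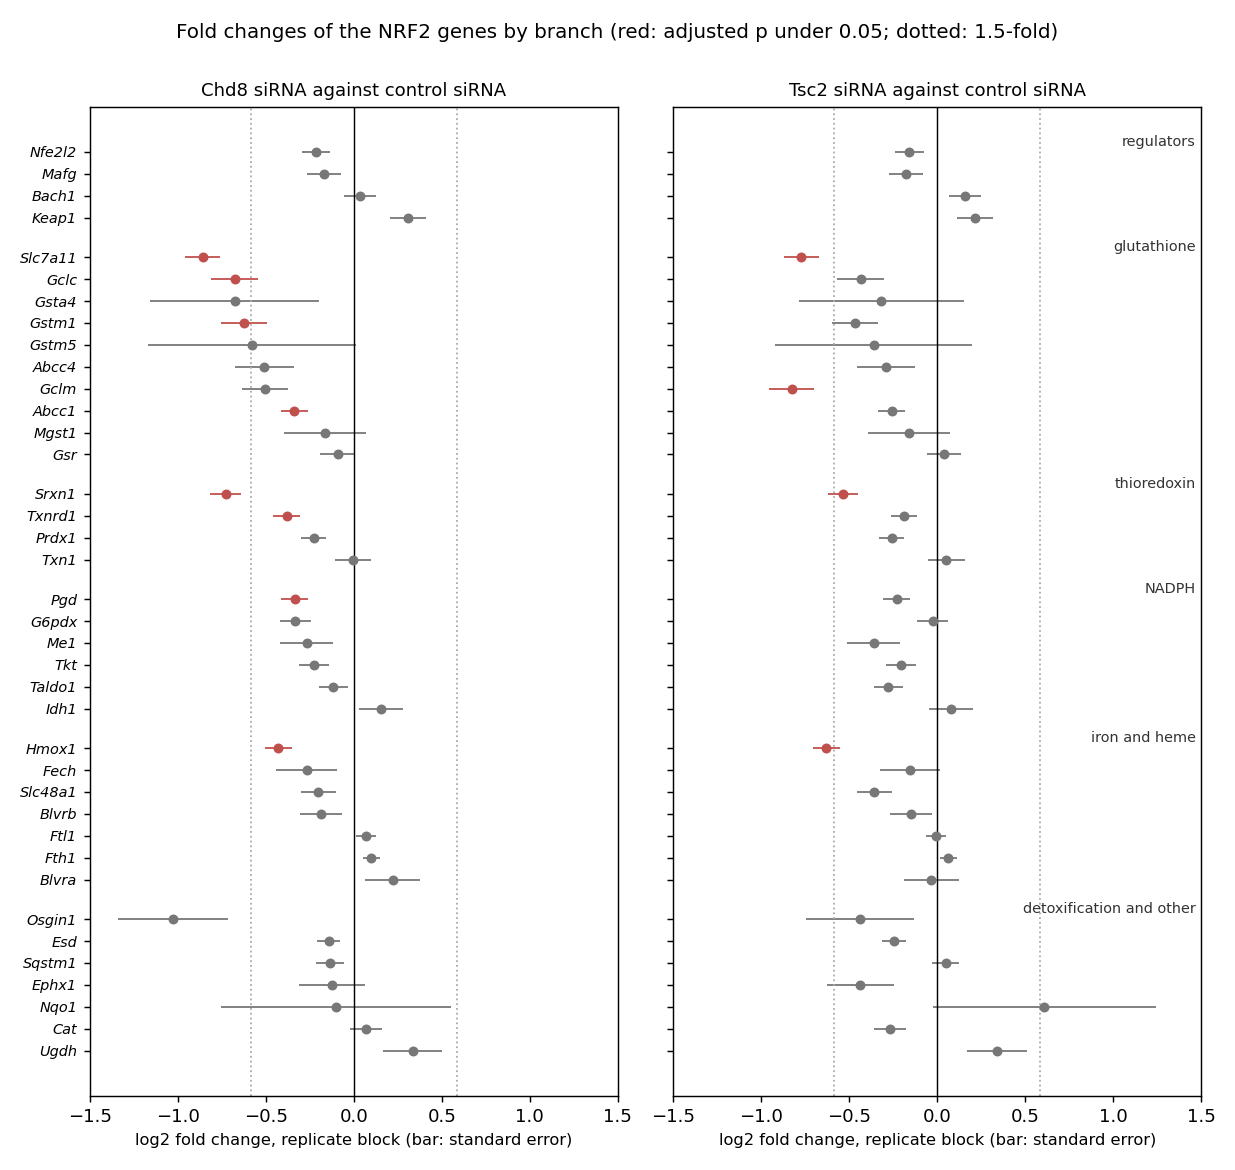
Log2 fold change with its standard error (SE, x axis, replicate number as a block) of each of the 38 NRF2 genes (y axis, grouped by branch) in Chd8 siRNA- and Tsc2 siRNA-treated microglia against control siRNA. Red points have an adjusted p under 0.05, 8 in the first panel and 4 in the second, and all lie left of 0; dotted lines mark a 1.5-fold change.

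The median log2 fold change of the 38 members was −0.20 with Chd8 siRNA and −0.22 with Tsc2 siRNA, and the median over all genes tested was −0.02 in both. The fold change was below 0 for 29 members in each comparison, against 52.2% and 52.4% of all genes. When each knockdown library was set against the control library of the same number, 19 of 38 members were lower at all 3 numbers with Chd8 siRNA (background 18.3%) and 19 with Tsc2 siRNA (background 16.3%). Only 3 members were higher at all 3 numbers in each (backgrounds 17.7% and 15.5%). The median ratio of the members was −0.15, −0.26 and −0.29 at the numbers 1, 2 and 3 with Chd8 siRNA on the log2 scale, and −0.12, −0.25 and −0.26 with Tsc2 siRNA, so that each number leaned lower and number 1 leaned least.

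**Figure D2:**
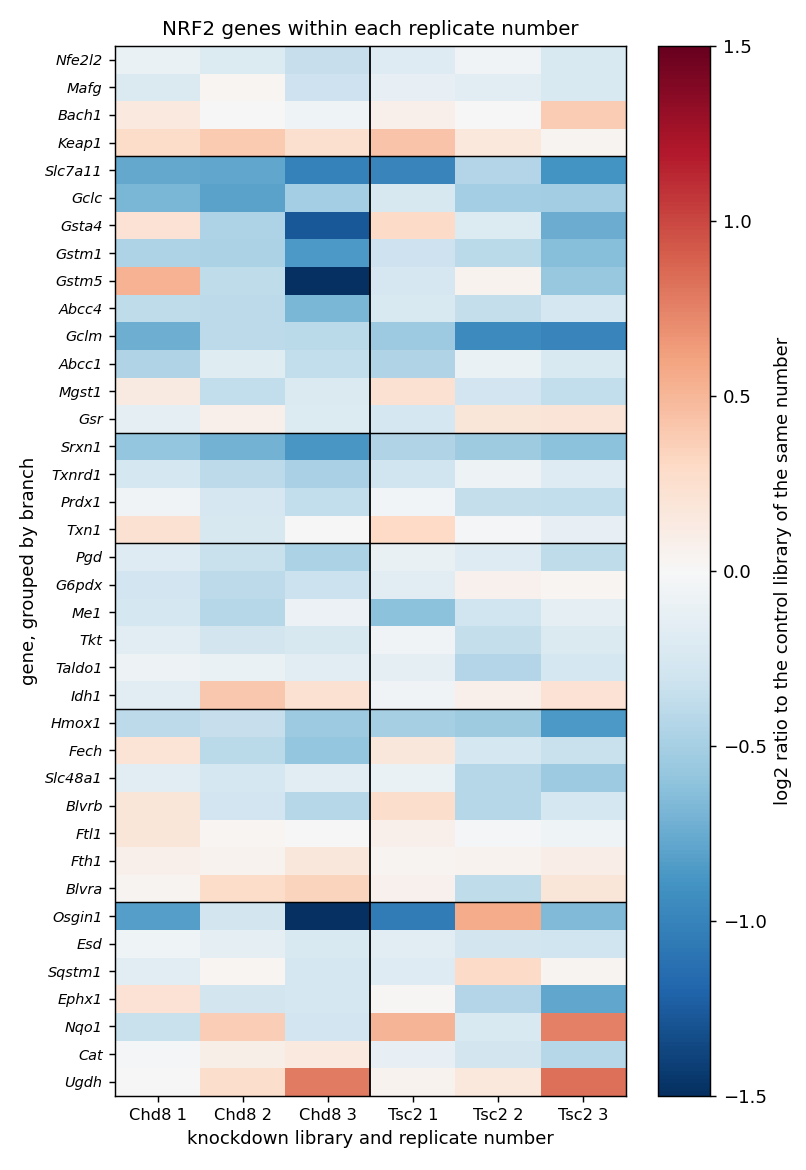
Log2 ratio (colour) of the normalized CPM in each knockdown library to that in the control library of the same replicate number, for the 38 NRF2 genes (rows, grouped by branch) and the 6 knockdown libraries (columns). Blue is lower and red is higher than control, and the colours end at −1.5 and 1.5. Slc7a11, Gclm, Gclc, Gstm1 and Srxn1 are among the genes below 0 in all 6 columns. Keap1 and Fth1 lie above 0 in all 6, Fth1 so slightly that its colour is faint.

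Promoter sequence was read for the members because many of them leaned the same way. RefSeq promoters on GRCm38.p6, from 250 bases before to 50 bases after a transcription start, were matched by symbol for 31 of the 38 members in 41 windows; Gclc, Gsr, Gsta4, Abcc1, Hmox1, Slc48a1 and Fech had no entry. The core of the antioxidant response element, TGACNNNGC on either strand, stood in at least 1 window of 14 of these 31 members (45.2%) and of 14.0% of the 27025 genes in the table. A second form of the same length, TGANTCAGC, joins an AP-1 element (TGANTCA) to the GC of the MAF part. It stood in 4 members (12.9%), Srxn1, Prdx1, Me1 and Osgin1, and in 1.37% of genes. The Srxn1 match to this form does not match the core, which stood elsewhere in the Srxn1 window. Every match of the second form holds an AP-1 element, as does the core of Prdx1 and Me1. An AP-1 element stood in 5 members (16.1%), these 4 and Gstm5, and in 8.97% of genes. Letters that match are a description and not a shown binding site. The members were named as NRF2 pathway genes, so a share above that of all genes can come from this choice. Among the genes that fell, Slc7a11 and Gstm1 had a window but no match to any of these elements.
The sequences of 4 members are printed because they show both forms, on the plus strand of the genome with the matched letters in capitals. Srxn1, Gclm and Txnrd1 fell in at least 1 knockdown, and Prdx1, which did not pass, encodes a peroxiredoxin that sulfiredoxin repairs.
Srxn1, chr2:152105454-152105512, TGANTCAGC 45 bases before the start: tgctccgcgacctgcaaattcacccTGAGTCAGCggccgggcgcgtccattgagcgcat
Prdx1, chr4:116685441-116685499, TGANTCAGC on the other strand, 133 bases before the start: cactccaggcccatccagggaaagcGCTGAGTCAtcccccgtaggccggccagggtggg
Gclm, chr3:122245398-122245456, TGACNNNGC on the other strand, 134 bases before the start: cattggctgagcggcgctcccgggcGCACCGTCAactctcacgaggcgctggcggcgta
Txnrd1, chr10:82859089-82859147, TGACNNNGC on the other strand, 92 bases before a start inside the gene: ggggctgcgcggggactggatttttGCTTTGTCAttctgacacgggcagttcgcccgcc

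The 4 regulators did not pass the test in either knockdown. From here on, log2 fold changes, their standard errors (SE) and adjusted p-values are from edgeR with the block unless stated otherwise. Nfe2l2 itself (chromosome 2, 75675513 to 75704641, minus strand) had 168, 123 and 151 CPM in control libraries 1 to 3, where CPM are counts relative to the library total, after TMM normalization in edgeR. Levels were 158, 107 and 118 CPM after Chd8 siRNA and 147, 119 and 129 CPM after Tsc2 siRNA. Each knockdown library was below the control library of its number, but the groups overlapped, and with the block the log2 fold changes were −0.21 (SE 0.08, edgeR adjusted p = 0.263) and −0.16 (SE 0.08, adjusted p = 0.530). Keap1, the inhibitor, had 39.6, 54.4 and 46.7 CPM in control, 48.0, 71.8 and 55.4 with Chd8 siRNA, and 53.4, 60.6 and 48.2 with Tsc2 siRNA. It was higher than control at all 3 numbers in both knockdowns, with log2 fold changes of 0.31 (SE 0.10, adjusted p = 0.193) and 0.21 (SE 0.10, adjusted p = 0.497). With 1 library left out, these ran from 0.25 to 0.38 and from 0.095 to 0.29. The Keap1 counts were spread over 6 transcripts, and Keap1-201 held 38.8% of them in control, 28.2% in Chd8 siRNA and 40.3% in Tsc2 siRNA; on the highest transcript of each gene alone, fitted without the block, the Chd8 siRNA value turned from 0.32 to −0.14.

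Mafg, which encodes the small MAF partner, had 65.7, 56.9 and 62.0 CPM in control, 56.4, 57.9 and 50.1 with Chd8 siRNA, and 60.1, 50.4 and 52.8 with Tsc2 siRNA, with overlapping groups. It shares 124 bases with Sirt7 on the same strand, and counts there cannot be assigned with certainty. Bach1, the repressor, depended on the replicate number far more than on the siRNA. It had 576, 264 and 221 CPM in control, 640, 264 and 212 with Chd8 siRNA, and 607, 263 and 289 with Tsc2 siRNA, so that in each group library 1 held the highest level by a wide margin. Its log2 fold changes with the block were 0.04 and 0.16 (adjusted p = 0.919 and 0.598 in edgeR).

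The glutathione branch had the lowest median of the 6 branches in both comparisons, −0.54 with Chd8 siRNA and −0.34 with Tsc2 siRNA on the log2 scale with the block. All 10 of its members were below 0 in the first comparison and 9 of 10 in the second. In each comparison, however, only 6 of the 10 were lower at all 3 replicate numbers. Gsta4 and Gstm5 were near the floor, with SEs of 0.48 and 0.59 with Chd8 siRNA. The 10 glutathione genes tested in a list of other pathway genes had medians of 0.04 and 0.10, with 7 of 10 above 0 in each. Both lists were chosen with earlier results of these data known, which limits this comparison. Slc7a11 (chromosome 3, 49892526 to 50443614, minus strand) encodes the light chain of the transporter that exchanges glutamate for cystine, the source of cysteine for glutathione. Its level was 182, 252 and 511 CPM in the control libraries, 107, 147 and 253 after Chd8 siRNA, and 91.9, 185 and 275 after Tsc2 siRNA. The groups overlapped, with library 3 the highest and library 1 the lowest in each, and each knockdown library was below the control library of its number. The log2 fold change was −0.86 with Chd8 siRNA (SE 0.10, adjusted p = 0.00173 with the block) and −0.77 with Tsc2 siRNA (SE 0.10, adjusted p = 0.00306 with the block), so that the level fell by 44.9% and fell by 41.4%. Without the block neither passed (adjusted p = 1.00 in both).

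Glutamate-cysteine ligase makes the first peptide bond of glutathione, with Gclc as its catalytic and Gclm as its modifier subunit. Gclm was at 52.2, 70.4 and 87.5 CPM in control, at 31.3, 53.6 and 65.8 with Chd8 siRNA, and at 35.7, 36.0 and 43.9 with Tsc2 siRNA. All 3 Tsc2 siRNA libraries lay below all 3 control libraries, and the log2 fold change was −0.83 (SE 0.13, adjusted p = 0.00995). The Chd8 siRNA libraries overlapped the controls, with a log2 fold change of −0.51 (SE 0.13, adjusted p = 0.0835). Gclc was at 17.5, 25.7 and 39.5 CPM in control, at 10.7, 14.5 and 27.6 with Chd8 siRNA, and at 14.7, 17.9 and 27.3 with Tsc2 siRNA. It fell with Chd8 siRNA (log2 fold change −0.68, SE 0.13, adjusted p = 0.0265), and its value with Tsc2 siRNA was −0.43 (SE 0.13, adjusted p = 0.207). In DESeq2 with the block, however, Gclm also passed with Chd8 siRNA (−0.49, adjusted p = 0.00993). Neither subunit passed in the comparison of the knockdowns, with Chd8 against Tsc2 siRNA values of 0.32 for Gclm (adjusted p = 0.369) and −0.24 for Gclc (adjusted p = 0.566). Without Tsc2 siRNA library 1, Gclm did pass in edgeR (0.52, adjusted p = 0.0391).

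Gstm1 encodes a glutathione transferase that attaches glutathione to reactive compounds. It had 20.1, 22.4 and 43.5 CPM in control, 14.5, 15.9 and 23.7 with Chd8 siRNA, and 16.1, 16.8 and 27.8 with Tsc2 siRNA, and fell with Chd8 siRNA (log2 fold change −0.62, SE 0.13, adjusted p = 0.0336). Abcc1 and Abcc4 encode pumps of the plasma membrane, the first of which exports glutathione conjugates. Abcc1 had 425, 423 and 491 CPM in control, 310, 372 and 381 with Chd8 siRNA, and 311, 394 and 420 with Tsc2 siRNA. Every knockdown library lay below every control library, and the gene fell with Chd8 siRNA (−0.34, SE 0.08, adjusted p = 0.0487) but did not pass with Tsc2 siRNA (−0.26, SE 0.08, adjusted p = 0.176). Abcc4 was low, at 14.6, 11.2 and 12.9 CPM in control, 11.1, 8.42 and 7.86 with Chd8 siRNA, and 12.4, 8.67 and 10.6 with Tsc2 siRNA; the Chd8 siRNA group lay below control without overlap (−0.51, adjusted p = 0.177). The other 4 members of the branch did not pass: Gsr, glutathione reductase, was between 178 and 311 CPM over the 9 libraries, Mgst1 between 3.70 and 6.65, and the transferases Gsta4 and Gstm5 were at most 3.17 and 2.49 CPM. An antisense gene that overlaps Gstm5 held 67.7% as many counts, and reads there cannot be assigned with certainty.

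The thioredoxin branch held the second gene that fell in both comparisons. Srxn1 encodes sulfiredoxin, which returns overoxidized peroxiredoxins to use, and its level was 122, 87.8 and 142 CPM in control, 81.5, 53.3 and 77.0 with Chd8 siRNA, and 89.5, 60.5 and 92.2 with Tsc2 siRNA. No Chd8 siRNA library reached a control library, whereas the Tsc2 siRNA group overlapped control. The level fell by 39.6% with Chd8 siRNA (log2 fold change −0.73, SE 0.09, adjusted p = 0.00173) and fell by 31.1% with Tsc2 siRNA (−0.54, SE 0.09, adjusted p = 0.00995). Nearly all of its counts came from 1 transcript, Srxn1-201, with 97.0% in control, 98.6% in Chd8 siRNA and 99.3% in Tsc2 siRNA.

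Txnrd1, the cytosolic thioredoxin reductase, was at 462, 503 and 667 CPM in control, 386, 382 and 474 with Chd8 siRNA, and 375, 476 and 584 with Tsc2 siRNA. It fell with Chd8 siRNA (−0.38, SE 0.08, adjusted p = 0.0281), and its value with Tsc2 siRNA was −0.19 (adjusted p = 0.374). Prdx1, a peroxiredoxin that removes hydrogen peroxide, was below control at all 3 numbers in both knockdowns without passing, with log2 fold changes of −0.23 and −0.26 (adjusted p = 0.156 and 0.137). Txn1, thioredoxin itself, was at 69.7 ± 2.43 CPM in control, 69.8 ± 9.17 with Chd8 siRNA and 72.7 ± 9.89 with Tsc2 siRNA (SD, n = 3).

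**Figure D3:**
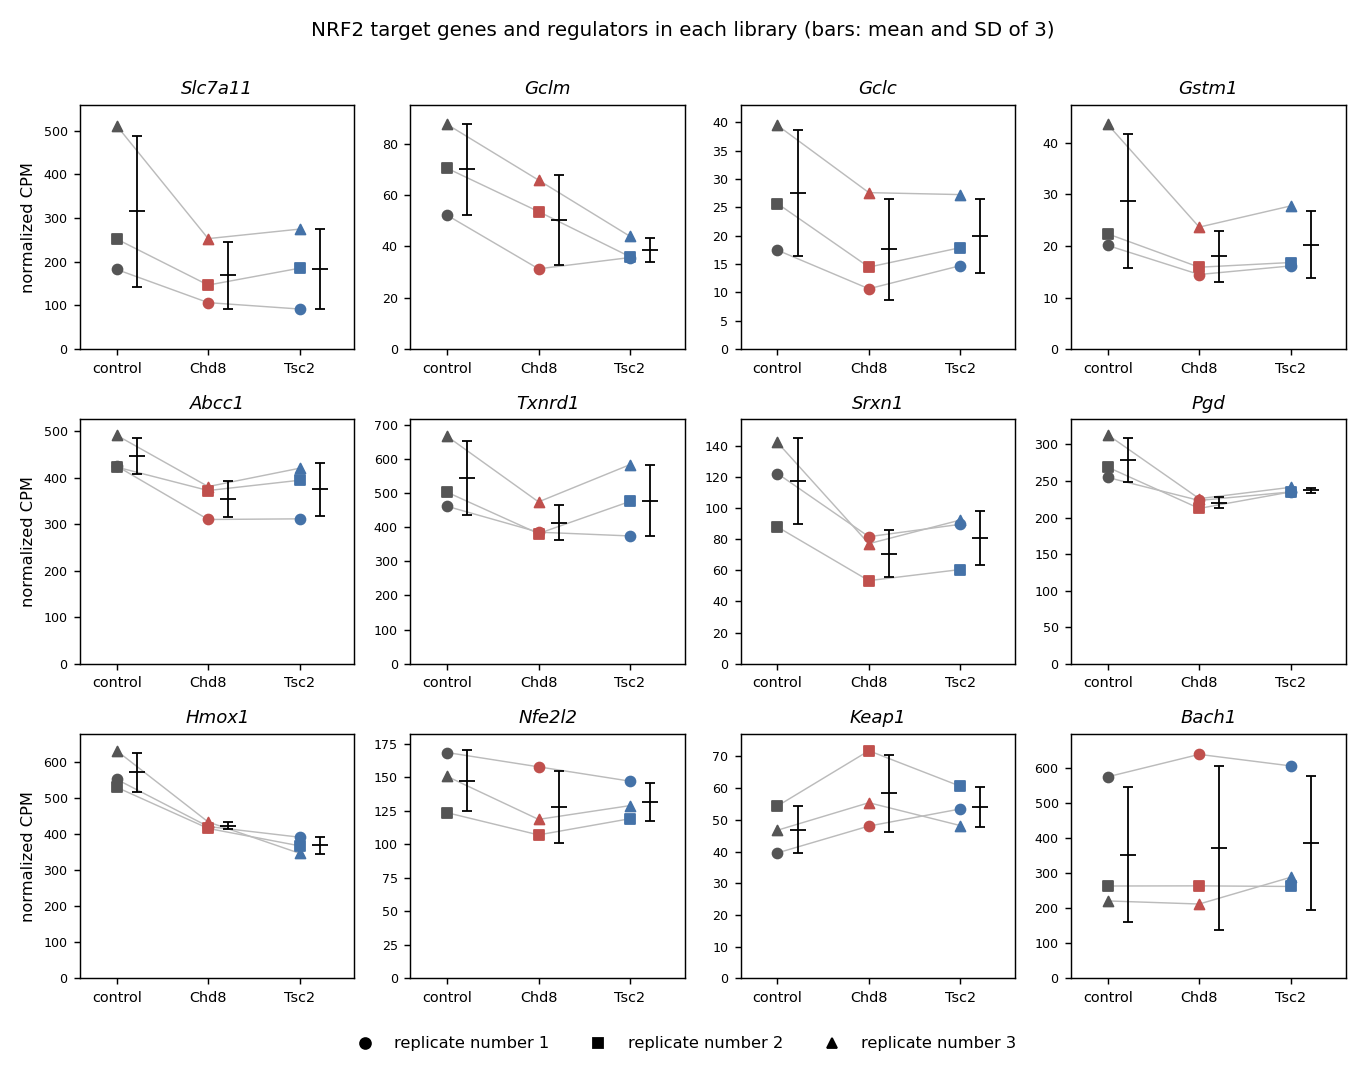
Normalized CPM (y axes, from 0) of the 9 members with an adjusted p under 0.05 in either knockdown and of the regulators Nfe2l2, Keap1 and Bach1 in each of the 9 libraries. Symbols give the replicate number, grey lines join libraries of 1 number, and black bars are the mean and SD of 3 libraries; the lines of Slc7a11, Srxn1 and Hmox1 all run down from control, while Bach1 separates by number.

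The NADPH branch comprised the oxidative and non-oxidative enzymes of the pentose phosphate pathway with Me1 and Idh1, 2 further makers of NADPH. Its medians with the block were −0.25 with Chd8 siRNA and −0.22 with Tsc2 siRNA. Pgd, 6-phosphogluconate dehydrogenase, was at 255, 269 and 313 CPM in control, 223, 213 and 226 with Chd8 siRNA, and 235, 235 and 241 with Tsc2 siRNA. All knockdown libraries were below all control libraries, and Pgd fell with Chd8 siRNA at the edge of the threshold (−0.34, SE 0.08, adjusted p = 0.0499; −0.23 and 0.250 with Tsc2 siRNA). G6pdx, which encodes the first enzyme of the pathway, was lower at all 3 numbers with Chd8 siRNA only (−0.33, adjusted p = 0.0888 in edgeR, 0.0161 in DESeq2 with the block) and was near 0 with Tsc2 siRNA (−0.03, adjusted p = 0.958). It lies across Ikbkg on the opposite strand over 19712 bases, and reads there are a limit to its value. Tkt, transketolase, had a Tsc2 siRNA group of 82.7 to 83.5 CPM below a control group of 85.6 to 107, with a log2 fold change of −0.21 (adjusted p = 0.394). Taldo1 was below control at all 3 numbers in both comparisons (−0.12 and −0.28), as was Me1 (−0.27 and −0.36). Idh1 was above 0 in both (0.15 and 0.08), and its Chd8 siRNA value ran from 0.031 to 0.29 with 1 library left out. None of these 3 genes passed.

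In the iron and heme branch Hmox1 fell in both comparisons and the ferritin genes did not pass. Hmox1 (chromosome 8, 75093621 to 75100589, plus strand) encodes the enzyme that opens the heme ring and frees its iron. It was at 552, 530 and 631 CPM in control, at 421, 416 and 434 with Chd8 siRNA, and at 391, 367 and 347 with Tsc2 siRNA. The 3 groups did not overlap at all, with control highest and Tsc2 siRNA lowest. The log2 fold change was −0.43 with Chd8 siRNA (SE 0.08, adjusted p = 0.0157) and −0.63 with Tsc2 siRNA (SE 0.08, adjusted p = 0.00173), so that the level fell by 25.8% and fell by 35.4%. Unlike Slc7a11, Hmox1 varied little within a group, and its SE without the block was 0.11. An exact permutation test, two-sided, gave p = 0.1 in either comparison, the smallest p that 3 libraries against 3 allow.

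The iron stores Fth1 and Ftl1, the heavy and light ferritin chains, were among the most abundant members, and Fth1 stood far above all others. Fth1 was at 7488, 6791 and 6750 CPM in control, 7914, 7022 and 7594 with Chd8 siRNA, and 7694, 7021 and 7229 with Tsc2 siRNA. Each knockdown library was slightly above its control, by log2 fold changes of 0.10 and 0.06 (SE 0.05 in both, adjusted p = 0.403 and 0.731). Ftl1 was at 2181 ± 253, 2285 ± 135 and 2166 ± 177 CPM in control, Chd8 siRNA and Tsc2 siRNA (SD, n = 3). Slc48a1, which encodes a heme carrier of the lysosome membrane, was at 84.7, 79.3 and 87.3 CPM in control, 75.3, 66.2 and 77.4 with Chd8 siRNA, and 78.8, 58.9 and 59.6 with Tsc2 siRNA. Both knockdown groups lay below control without overlap, with log2 fold changes of −0.20 (adjusted p = 0.416) and −0.36 (adjusted p = 0.145); DESeq2 with the block gave −0.35 with Tsc2 siRNA (adjusted p = 0.0450). The biliverdin reductases Blvra and Blvrb, which act after heme oxygenase, and Fech, which inserts iron into heme, did not pass, with values from −0.27 to 0.22 over both comparisons.

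Among the detoxification and other genes no member passed in edgeR. Esd, a hydrolase that completes the removal of formaldehyde bound to glutathione, was at 426, 478 and 512 CPM in control, 408, 434 and 439 with Chd8 siRNA, and 382, 395 and 415 with Tsc2 siRNA. Only the Tsc2 siRNA group lay clear of control (−0.25, SE 0.07, adjusted p = 0.131 in edgeR), and it passed in DESeq2 with the block (−0.24, adjusted p = 0.0268). Osgin1 had the lowest log2 fold change of all members with Chd8 siRNA, −1.03, but at 2.55 to 12.7 CPM over the 9 libraries its SE was 0.31 (adjusted p = 0.147). Nqo1, often used as a marker of NRF2 activity, was at 0.469 to 1.79 CPM, with 10 to 61 counts per library, and no difference was detectable at this depth. Sqstm1, an autophagy receptor that binds KEAP1, was at 2020 ± 376, 1832 ± 233 and 2104 ± 494 CPM (SD, n = 3). Cat, catalase, had fold changes of opposite sign (0.07 and −0.27). Ugdh was above 0 in both (0.33 and 0.34) and Ephx1 below 0 in both (−0.12 and −0.44), all with the block and without passing. With 1 library left out, Cat with Chd8 siRNA ran from −0.0018 to 0.15 and Ephx1 from −0.30 to 0.027. Ugdh with Chd8 siRNA then ran from 0.11 to 0.52.

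Counting members whose 3 libraries all lay on one side of the control libraries, 6 were lower with Chd8 siRNA (Abcc1, Abcc4, Srxn1, Pgd, Hmox1 and Slc48a1; background 4.92%) and 0 higher (background 4.17%). With Tsc2 siRNA 7 were lower (Gclm, Abcc1, Pgd, Tkt, Hmox1, Slc48a1 and Esd; background 4.23%) and 0 higher (background 3.87%). Without control library 3 the counts in either direction were 6 with Chd8 siRNA and 7 with Tsc2 siRNA, whereas the share of all genes was then 15.3% and 14.5%, so that 6 of 38 was near the background.

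Per length, the members spanned a wide range in control microglia. In TPM, counts per transcript length scaled to a common total, Fth1 was highest at 3757 ± 437, followed by Ftl1 at 1134 ± 152, Sqstm1 at 510 ± 145, Prdx1 at 485 ± 104, Esd at 255 ± 37.9, Hmox1 at 184 ± 35.0 and Txnrd1 at 104 ± 29.6 (SD, n = 3). Sqstm1 and Prdx1 differed by less than their spread. Slc7a11 at 28.9 ± 19.3 TPM, Gclm at 29.2 ± 9.44, Srxn1 at 25.2 ± 8.39 and Nfe2l2 at 31.3 ± 6.97 could not be ordered beyond their spread either, and Nqo1 was lowest at 0.244 ± 0.0547.

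Chd8 siRNA and Tsc2 siRNA were also compared with each other, without the shared controls. No member passed in edgeR without or with the block, against 0.172% of genes lower and 0.203% higher with it, and at an unadjusted p under 0.05 there were 0 members without it (backgrounds 1.6% lower and 1.49% higher) and 7 with it, 4 lower (background 5.27%) and 3 higher (background 5.46%). DESeq2 gave 0 members without the block (backgrounds 0.00615% lower and 0.0246% higher) and 2 with it (backgrounds 1.52% and 1.96%), Cat (0.35, adjusted p = 0.0205) and G6pdx (−0.30, adjusted p = 0.0494), both under a 1.5-fold change. Tsc2 siRNA library 1 decided the count in edgeR: without it and with the block, 3 members passed, Sqstm1 lower (−0.29, adjusted p = 0.0496; background 0.743%) and Cat (0.44, adjusted p = 0.0279) and Gclm (0.52, adjusted p = 0.0391) higher (background 0.604%) with Chd8 than with Tsc2 siRNA. The median log2 difference of the members was −0.05 with the block and −0.03 without it. Pgd was lower (background 4.42%) and Hmox1 higher (background 4.02%) in every Chd8 siRNA library than in every Tsc2 siRNA library, with differences of −0.10 (SE 0.08, adjusted p = 0.679) and 0.20 (SE 0.08, adjusted p = 0.336). A missed threshold does not show that the knockdowns acted alike.

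A list of 60 other pathway genes, which holds further subunits, transferases, peroxiredoxins and iron carriers, did not lean lower as a whole. Of these, 54 passed the filter, and their median log2 fold change was 0.03 with Chd8 siRNA and −0.01 with Tsc2 siRNA. With the block, 1 rose and 1 fell with Chd8 siRNA, and none passed with Tsc2 siRNA; none passed without the block. Glrx, glutaredoxin, rose from 342, 240 and 172 CPM in control to 443, 364 and 279 (0.55, SE 0.12, adjusted p = 0.0398 in edgeR), a change under 1.5-fold. Slc40a1, the iron exporter ferroportin, fell from 13.0, 28.8 and 32.6 CPM to 7.84, 20.8 and 17.7 (−0.70, SE 0.15, adjusted p = 0.0410). The members and this list were both chosen with earlier results of these data known.

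The libraries held between 16913448 and 33213801 counts, so that 3 counts stood for 0.0903 to 0.177 CPM; this floor covers counting error only. The targeted genes went with the labels: Chd8 was at 86.8, 44.5 and 38.3 CPM in the Chd8 siRNA libraries against 118, 97.4 and 93.6 in control, and Tsc2 at 24.6, 30.6 and 36.5 CPM in the Tsc2 siRNA libraries against 40.8, 39.9 and 38.9. The knockdown of Tsc2 was thus smallest at number 3 and that of Chd8 smallest at number 1. Microglia markers summed to 3741, 3703 and 3047 CPM in control, 4122, 3912 and 3298 with Chd8 siRNA, and 3902, 3870 and 3836 with Tsc2 siRNA, and this sum was higher at every number in both knockdowns. Single markers differed from it: Csf1r, at 572, 479 and 446 CPM in control, 488, 454 and 405 with Chd8 siRNA, and 479, 428 and 429 with Tsc2 siRNA, was lower at every number. Of the markers, 12 of 13 were above the floor in every library, but Tmem119 was at 0 to 1.11 CPM and P2ry12 at most 2.78 CPM.

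Astrocyte markers moved with the replicate number and most of all with control library 3. Their sum over 11 genes, 8 of them above the floor in every library, was 18.4, 31.6 and 129 CPM in control, 15.9, 28.5 and 68.0 with Chd8 siRNA, and 15.3, 33.7 and 65.8 with Tsc2 siRNA. Gfap was at 15.3 CPM and Aqp4 at 46.4 CPM in control 3, whereas Aqp4 was at 0 in the 3 libraries of number 1. Not every marker peaked there: Sox9 was at 7.51 CPM in control 3 and 11.3 in Chd8 siRNA 3, Slc1a2 at 5.58 and 6.38, and Gja1 at 6.61 in control 3 and 7.44 in Tsc2 siRNA 3, while S100b, at 0.172 CPM, was lowest of the controls in control 3. The 8 markers of fibroblasts and vessels, 4 of them above the floor in every library, summed to 21.9, 36.0 and 72.8 CPM in control, 19.8, 21.4 and 32.1 with Chd8 siRNA, and 16.9, 30.5 and 53.7 with Tsc2 siRNA. This sum was lower than control at every number in both knockdowns, in the direction of the members. The astrocyte sum with Tsc2 siRNA was higher at number 2. Single vessel markers differed from their sum: Pdgfrb was at 4.03, 9.54 and 14.2 CPM in control. With Tsc2 siRNA it was higher at every number, at 4.40, 15.0 and 18.3 CPM. Col1a1 alone was at 44.0 CPM in control 3. The 6 neuron markers, 3 of them above the floor in every library, summed to 4.56, 6.22 and 19.3 CPM in control, 2.91, 6.44 and 12.8 with Chd8 siRNA, and 3.76, 4.31 and 5.80 with Tsc2 siRNA, highest in control 3 as well. The 8 markers of the oligodendrocyte lineage, 2 of them above the floor in every library, summed to between 11.8 and 27.4 CPM. Control 3 was the highest of the 3 controls for all 9 members that passed in either knockdown, for 21 of 38 members (55.3%) and for 32.1% of all genes. Slc7a11 and Gstm1 are expressed in astrocytes as well. The part of these cells in the results was not tested. With the numbers 1 and 2 alone and the block, Slc7a11 (−0.77, adjusted p = 0.0211) and Srxn1 (−0.64, adjusted p = 0.0263) passed with Chd8 siRNA (background 0.0745% lower). Slc7a11 (−0.69, adjusted p = 0.0431) and Hmox1 (−0.49, adjusted p = 0.0384) passed with Tsc2 siRNA (background 0.0559%). The median of the members was then −0.10 with Chd8 siRNA and −0.14 with Tsc2 siRNA. The other 6 of 8 members no longer passed with Chd8 siRNA: Gclc (−0.76, adjusted p = 0.128), Gstm1 (−0.47, 0.400), Abcc1 (−0.31, 0.310), Txnrd1 (−0.32, 0.304), Pgd (−0.25, 0.407) and Hmox1 (−0.36, 0.145). With Tsc2 siRNA 2 of 4 were lost, Gclm (−0.73, adjusted p = 0.0940) and Srxn1 (−0.47, 0.130), so that of the genes that fell in both knockdowns only Slc7a11 still passed in both.

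**Figure D4:**
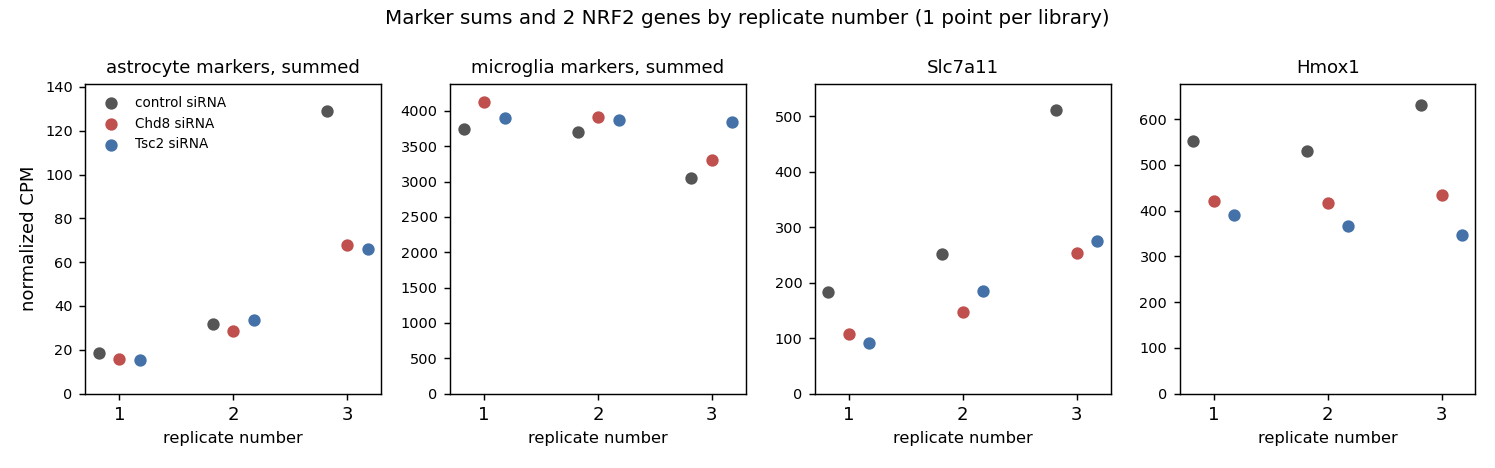
Normalized CPM (y axes, from 0) of the summed astrocyte markers, the summed microglia markers, Slc7a11 and Hmox1 against the replicate number (x axes), 1 point per library and 1 colour per siRNA. The astrocyte sum and Slc7a11 both peak in control library 3, at 129 and 511 CPM, while both knockdowns lie below control for Hmox1 at every number.

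In the fits that left out 1 library, the log2 fold changes with Chd8 siRNA ran from −0.96 to −0.78 for Slc7a11 and from −0.79 to −0.66 for Srxn1, and that of Hmox1 with Tsc2 siRNA from −0.69 to −0.54. Slc7a11 with Tsc2 siRNA had an adjusted p of 0.0559 without control 3, and Gclm and Srxn1 were lost without number 2 or number 3 of either group. The number of members that passed ranged from 2 to 6 with Chd8 siRNA (all lower; 0.0468% to 0.327% of all genes) and from 1 to 6 with Tsc2 siRNA (all lower; 0.0293% to 0.447% of all genes), and without control 3 it was 2 and 1.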

How the data were processed

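RNA-seq of 9 libraries (3 per siRNA) was used, grouped by the treatment in the labels. The authors quantified reads with salmon 0.14.1 on mm10 and deposited estimated counts per transcript, not normalized; the annotation release is not given in the sources used here, and the labels and the methods name different library kits. The methods say that replicates came from distinct brains; p-values measure the spread between these libraries only.

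Transcripts were summed to genes with GENCODE mouse release M21 (GRCm38; 139852 of 140948 transcripts matched, the other 1096 held 0.27% of counts), and sums were rounded. Genes were filtered (filterByExpr), scaled (TMM) and tested with edgeR 4.0.16 (quasi-likelihood, R 4.3.3, all 9 libraries in 1 fit, Benjamini-Hochberg over 16273 genes). Standard errors were calculated back from the F statistic. Single values were also compared by an exact permutation test on log2(CPM + 0.5). The estimated counts and all CPM and TPM values are therefore on a scale computed here.

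Same-numbered libraries deviated together (r from 0.244 to 0.521 in 9 pairs; −0.381 to 0.0363 in 18 others, across genes), so that the replicate number was added as a block beside the unblocked fit; the pairing comes from the numbers in the labels. Other alternatives were DESeq2 1.42.0, median-of-ratios scaling, no count filter, 2 groups only, the highest transcript only, and each library left out. Values in every library are given for the regulators, for members with an adjusted p under 0.05 or with non-overlapping groups at a fold change of 1.2 or more, and for the member with the lowest p in each branch. The members and lists were chosen with earlier results of these data known. Near-identical copies (BLAST 2.17.0, 95% identity over 300 bases) held 4.42% as many counts as Fech and under 1% for other members.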

Additional observations from a re-analysis of the deposited data

How the results depend on the processing

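With the replicate block the members called with Chd8 siRNA went from 0 to 4, against 0.535% of all genes. With Tsc2 siRNA they went from 0 to 3, against 0.387%. Without a fold-change threshold they were 8 (1.04%) and 4 (0.639%). The other pathway genes called with Chd8 siRNA went from 0 to 1. DESeq2 called 1 member with Tsc2 siRNA (0.0369% of the genes with an adjusted p). With the block it called 4 with Chd8 siRNA (1.87%) and 3 with Tsc2 siRNA (1.09%), and 10 and 6 without a fold-change threshold. An alternative chosen after the astrocyte marker levels were seen took only the replicate numbers 1 and 2, with the block. It called 2 members with Chd8 siRNA (0.211% of all genes) and 1 with Tsc2 siRNA (0.124%). The medians were then −0.10 and −0.14, and that of Chd8 against Tsc2 siRNA was 0.0073. Leaving out each library in turn with the block gave 2 to 3 called members with Chd8 siRNA, against 0.117% to 0.474% of all genes. With Tsc2 siRNA it gave 0 (without control library 3) to 4, against 0.041% to 0.761%. Without the block it was 0 in each, against 0.0% of all genes. The medians ranged from −0.31 to −0.17 with Chd8 siRNA and from −0.29 to −0.15 with Tsc2 siRNA, with the block from −0.28 to −0.14 and from −0.29 to −0.13. For Chd8 against Tsc2 siRNA they ranged from −0.047 to −0.0056, with the block from −0.091 to −0.015. Members with non-overlapping groups numbered 6 to 18, 7 to 17 and 3 to 11 in the 3 comparisons, where 2 libraries stood against 3 and 15.2% to 22.6%, 14.5% to 21.7% and 15.9% to 24.1% of all genes did not overlap. Keap1 with Chd8 siRNA was −0.14 on its highest transcript. With a library left out, Bach1 ranged from −0.57 to 0.62 with Chd8 siRNA, from −0.048 to 0.14 with the block (−8.4e-05 without control library 3), and from −0.36 to 0.67 with Tsc2 siRNA. The causes were not tested. Other scalings and filters left the calls as they were without the block. Depth limits Nqo1, Gsta4 and Gstm5.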
